A study of Mus musculus with 86 samples.

Results

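Regional homeobox transcription factors were followed across the prefrontal cortex, hippocampus and hypothalamus of wild house mice. The members were selected by gene symbol alone, as the protein-coding genes of the Lhx, Dlx, Irx, Otx, Emx, Meis, Pbx, Hmx, Barhl, Gsx, Nkx and Pou3f families, and of the family of Six3 and Six6, whose symbols end in a number. This gave 62 of the 35275 genes in the count table, in 13 families. The largest family was Nkx with 14 members, followed by Lhx with 8 and by Dlx, Irx and the family of Six3 and Six6 with 6 each.

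The mice were adult Mus musculus that lived freely in one barn population, were caught outside the breeding season, and carried no engineered allele and received no treatment. Animals came from the extremes of social network size, that is, the number of partners met in nest boxes, which the sample records call high (large network) or low (small network) gregariousness. Each of the 86 libraries was made from total RNA of 1 region of 1 of 29 mice, punched from frozen sections. The prefrontal cortex and hippocampus had libraries of 7 large-network and 7 small-network females and of 7 large-network and 8 small-network males. The hypothalamus had 7 libraries in every combination of sex and network size. A punch holds many cell types, so fewer cells of a type and less RNA per cell cannot be told apart in any difference described here. Reads were counted without a stated strand setting. The spans of 24 members overlap that of an annotated gene on the opposite strand, among them Six6, Hmx2, Hmx3, Nkx2-1 and Nkx6-2. Counts of these members may therefore include reads of the other gene. Whether the exons of each pair overlap was not examined.

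Total counts lay between 33711824 and 81865801 per library. Levels are given in CPM (counts scaled to a common library size) after scaling by the TMM factors of edgeR. The region labels were checked with regional marker genes. The summed level of 11 hypothalamic neuropeptide and enzyme genes was 178 to 1627 CPM in the hypothalamus and 13.4 to 22.3 CPM in the prefrontal cortex, and the summed level of 7 cortical genes was 832 to 1351 CPM in the prefrontal cortex and 307 to 447 CPM in the hypothalamus. The 8 hippocampal genes summed to 484 to 725 CPM in the hippocampus, which overlapped the 366 to 520 CPM in the prefrontal cortex. Libraries of each region also varied in genes of neighbouring tissue. In the hippocampus, 6 genes of cerebellar granule cells, a list added after other values were seen, summed to 16.8 to 1260 CPM, with animal 23 highest, against 65.0 to 102 CPM in the hypothalamus and at most 13.2 CPM in the prefrontal cortex. In the prefrontal cortex, 10 striatal genes summed to 385 to 1389 CPM, with animals 10 (1389 CPM) and 20 (1323 CPM) far above the next library (929 CPM). In the hypothalamus, 8 thalamic genes summed to 363 to 1337 CPM, with animal 6 highest and the next library at 785 CPM. Counts of called members, and the values that moved most, are also given without them.

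The homeodomain is a DNA-binding fold, and homeobox genes encode the transcription factors that carry it. In the developing forebrain they divide the neural tube into territories: Emx, Otx and Lhx2 act on the dorsal side, Dlx, Gsx and Nkx2-1 on the ventral side, and Six3, Six6, Hmx and Irx genes in the diencephalon and its borders. Many stay active in mature neurons, where they maintain cell identity. LIM-homeodomain (Lhx) proteins act through Ldb cofactors, Six3 and its relatives through Eya coactivators and Dach corepressors, and Meis and Pbx proteins, of the TALE class, bind DNA together with other homeodomain proteins.

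Promoters of 46 members were matched by symbol in RefSeq (GRCm38.p6). The 250 bases before the annotated start are printed for 5 genes chosen to stand for the 3 kinds of regional pattern described next: Six6 and Nkx2-1 (hypothalamus), Lhx1 and Irx2 (hypothalamus and hippocampus, nearly absent from the prefrontal cortex), and Lhx2 (prefrontal cortex and hippocampus). Capitals mark the CCAAT box, written CCAAT or, on the other strand, ATTGG, and the core bound by Meis proteins, TGACAG or, on the other strand, CTGTCA. Each is read 5′ to 3′ on the gene's strand. Six6 lies at chr12:72939632-72939881 (plus strand), Nkx2-1 at chr12:56536909-56537158 (minus), Lhx1 at chr11:84525535-84525784 (minus), Irx2 at chr13:72628570-72628819 (plus) and Lhx2 at chr2:38339031-38339280 (plus).
Six6: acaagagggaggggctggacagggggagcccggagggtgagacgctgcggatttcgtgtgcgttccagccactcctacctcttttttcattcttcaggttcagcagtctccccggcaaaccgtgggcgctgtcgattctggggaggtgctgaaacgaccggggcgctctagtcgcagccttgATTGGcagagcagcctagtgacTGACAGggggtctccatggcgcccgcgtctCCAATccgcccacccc
Nkx2-1: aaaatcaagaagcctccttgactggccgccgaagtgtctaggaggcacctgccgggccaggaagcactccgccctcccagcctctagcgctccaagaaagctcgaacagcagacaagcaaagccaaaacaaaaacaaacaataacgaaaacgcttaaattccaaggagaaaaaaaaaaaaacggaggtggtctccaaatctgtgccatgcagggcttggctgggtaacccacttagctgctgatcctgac
Lhx1: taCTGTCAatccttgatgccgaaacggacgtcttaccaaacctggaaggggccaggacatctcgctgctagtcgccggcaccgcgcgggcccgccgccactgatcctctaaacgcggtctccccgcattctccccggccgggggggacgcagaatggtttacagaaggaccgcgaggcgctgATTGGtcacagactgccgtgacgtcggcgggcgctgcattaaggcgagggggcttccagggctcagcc
Irx2: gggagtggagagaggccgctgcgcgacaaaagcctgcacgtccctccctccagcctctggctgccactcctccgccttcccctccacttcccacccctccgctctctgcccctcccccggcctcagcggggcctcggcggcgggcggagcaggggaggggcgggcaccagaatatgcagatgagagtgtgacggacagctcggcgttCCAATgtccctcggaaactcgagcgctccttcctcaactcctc
Lhx2: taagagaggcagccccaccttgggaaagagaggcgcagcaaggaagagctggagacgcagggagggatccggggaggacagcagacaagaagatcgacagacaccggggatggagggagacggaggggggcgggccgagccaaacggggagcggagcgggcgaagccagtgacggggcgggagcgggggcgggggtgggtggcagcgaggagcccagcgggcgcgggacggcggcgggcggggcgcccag
The windows of members were rich in cytosine and guanine in the median. Over windows of 300 bases that also hold the 50 bases after the start, the median G+C content was 63.8% in the 46 members and 52.7% in all 27025 promoters, and the median number of CG dinucleotides was 19 against 7. Of the 5 printed genes, Lhx2 had 74.7%, Irx2 69.0%, Lhx1 65.7%, Six6 62.3% and Nkx2-1 53.7%. Hmx3 had the highest G+C content at 78.0% and Otx2 the lowest at 41.7%. TGACAG or its complement CTGTCA was found in 19.6% of member windows and 19.3% of all windows, and CCAAT or ATTGG in 43.5% and 37.9%. The homeodomain core TAATTA, its own complement, was in 6.52% of member windows (Barhl1, Emx2 and Otx2) and 5.31% of all windows. The Nkx2-1 core CAAGTG or CACTTG was in 6.52% of member windows (Gsx1, Nkx1-2 and Nkx2-2) and 13.5% of all windows. A match describes letters and not a bound site.

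Of the 62 members, 44 reached a mean of at least 1 CPM in at least 1 region: 26 in the prefrontal cortex, 36 in the hippocampus and 43 in the hypothalamus. The hypothalamus had the highest mean for 25 of the 44 (56.8%), against 40.6% of the 15621 genes that reached the same level. The prefrontal cortex was highest for 11 (25%, against 35.8% of all those genes) and the hippocampus for 8 (18.2%, against 23.6%). The 18 remaining members stayed at or below a mean of 0.868 CPM, and Nkx2-6, a gene of pharyngeal and cardiac development, had no read in any library. Per kilobase of exon, the scale on which genes can be set beside each other, members with high levels were Pou3f3, Pbx2 and Lhx2 in the prefrontal cortex (means of 23.1, 16.3 and 13.5 CPM per kb). They were Pou3f3, Pbx2 and Pou3f1 in the hippocampus (17.8, 17.5 and 12.9 CPM per kb). In the hypothalamus they were Nkx6-2, Pbx2 and Pou3f3 (23.8, 17.5 and 13.8 CPM per kb).

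**Figure D1:**
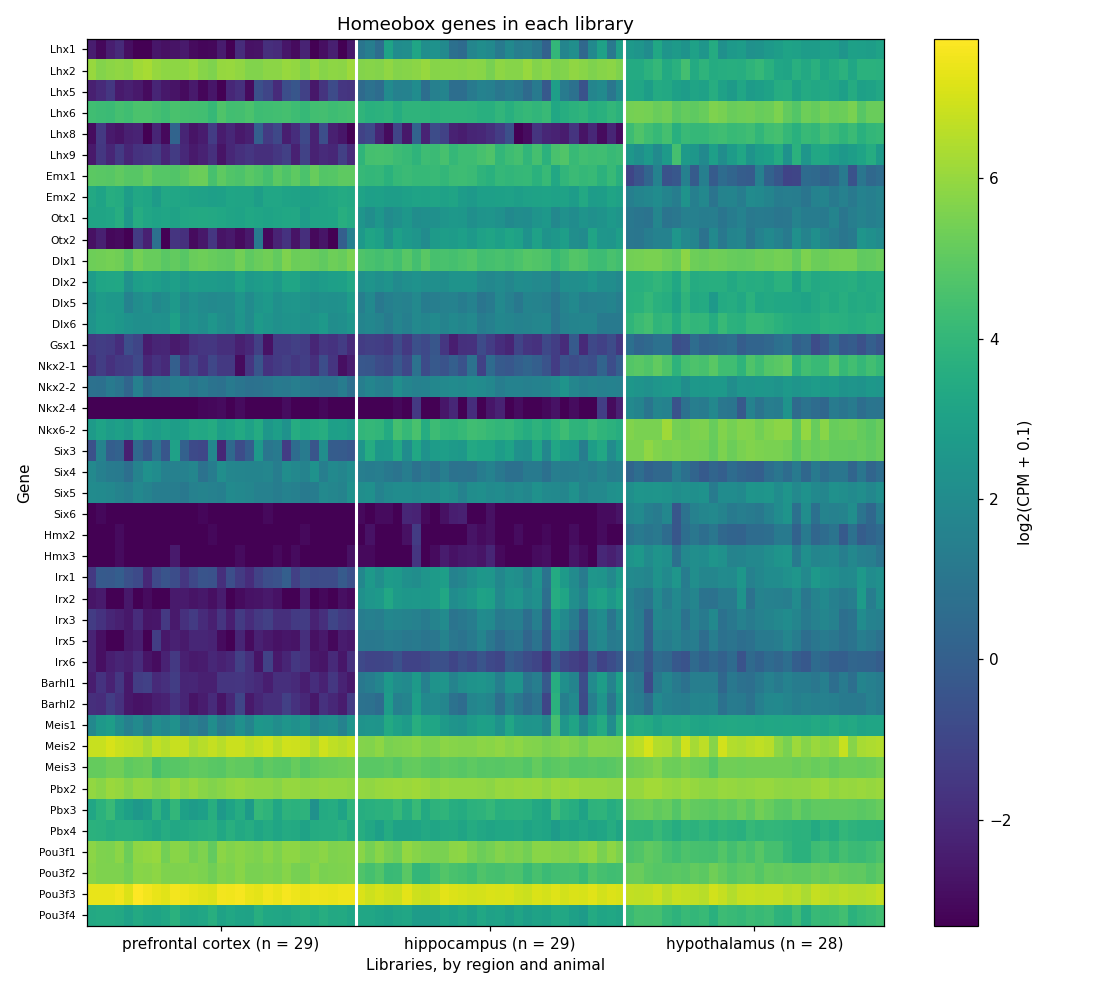
Each row is 1 of 42 homeobox genes with a mean of at least 1 CPM in at least 1 region and each column 1 library (29 of the prefrontal cortex, 29 of the hippocampus and 28 of the hypothalamus, in order of animal). Colour is log2(CPM + 0.1). Six6, Hmx2, Hmx3 and Nkx2-4 are bright in the hypothalamus and dark elsewhere, while Pbx2 and Pou3f3 are bright in all 3 regions.

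Regions were compared by the quasi-likelihood test of edgeR over 19873 genes, of which 54 were members. A member was called when its adjusted p was under 0.05 and its difference at least 2-fold. Between hypothalamus and prefrontal cortex, 30 of the 54 members were called higher in the hypothalamus and 7 lower, against 9.28% and 7.13% of all genes tested. Between hypothalamus and hippocampus, 17 were called higher and 9 lower (all genes, 5.32% and 5.18%). Between hippocampus and prefrontal cortex, 23 were called higher in the hippocampus and 2 lower (all genes, 5.01% and 2.07%). The median log2 difference over the members was 1.48, 0.38 and 0.55 in these comparisons, and 0.03, 0.01 and 0.01 over all genes tested. Without the 15 hippocampus libraries that held at least 10 CPM of Gabra6, a granule cell receptor subunit, the counts were 31 and 7, 21 and 8, and 19 and 2. Without the 2 prefrontal cortex libraries rich in striatal genes, or without the hypothalamus library of animal 6, they were 30 and 7, 17 and 9, and 23 and 2.

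Libraries of 2 regions often did not overlap at all. All hypothalamus libraries lay above all prefrontal cortex libraries for 23 of the 54 members (6.65% of all genes) and below for 7 (7.36%). All hypothalamus libraries lay above all hippocampus libraries for 15 members (3.92%) and below for 5 (4.35%). All hippocampus libraries lay above all prefrontal cortex libraries for 8 members (1.71%) and below for 3 (2.36%).

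Emx1, Emx2, Lhx2 and Otx1 were higher in the prefrontal cortex and hippocampus than in the hypothalamus. Emx1, which marks the lineage of cortical glutamatergic neurons, had a lowest, median and highest level of 22.4, 29.3 and 37.6 CPM in the prefrontal cortex. It had 9.80, 16.6 and 19.8 CPM in the hippocampus and 0.369, 1.07 and 2.92 CPM in the hypothalamus. The 3 regions did not overlap, and by edgeR the log2 fold change was -4.55 (SE 0.13) for hypothalamus against prefrontal cortex (adjusted p = 3.7e-47) and -0.87 (SE 0.11) for hippocampus against prefrontal cortex (adjusted p = 5.2e-11). Lhx2, a selector gene of cortical identity, stood at 48.8, 57.7 and 77.6 CPM in the prefrontal cortex and 44.0, 53.5 and 64.9 CPM in the hippocampus, which overlapped. In the hypothalamus Lhx2 stood at 8.76, 12.3 and 21.6 CPM, below every library of the other regions, with a log2 fold change of -2.25 (SE 0.06) against the prefrontal cortex. Otx1, which acts in deep cortical layers, fell by 1.96 (SE 0.06) on the log2 scale from prefrontal cortex to hypothalamus, and Emx2, needed for growth of the hippocampus, by 1.60 (SE 0.06). Both were also lower in every hypothalamus library than in any hippocampus library. Six4, a relative of Six3 that is broadly expressed, was called lower in the hypothalamus than in the prefrontal cortex (log2 fold change -1.14, SE 0.10).

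**Figure D2:**
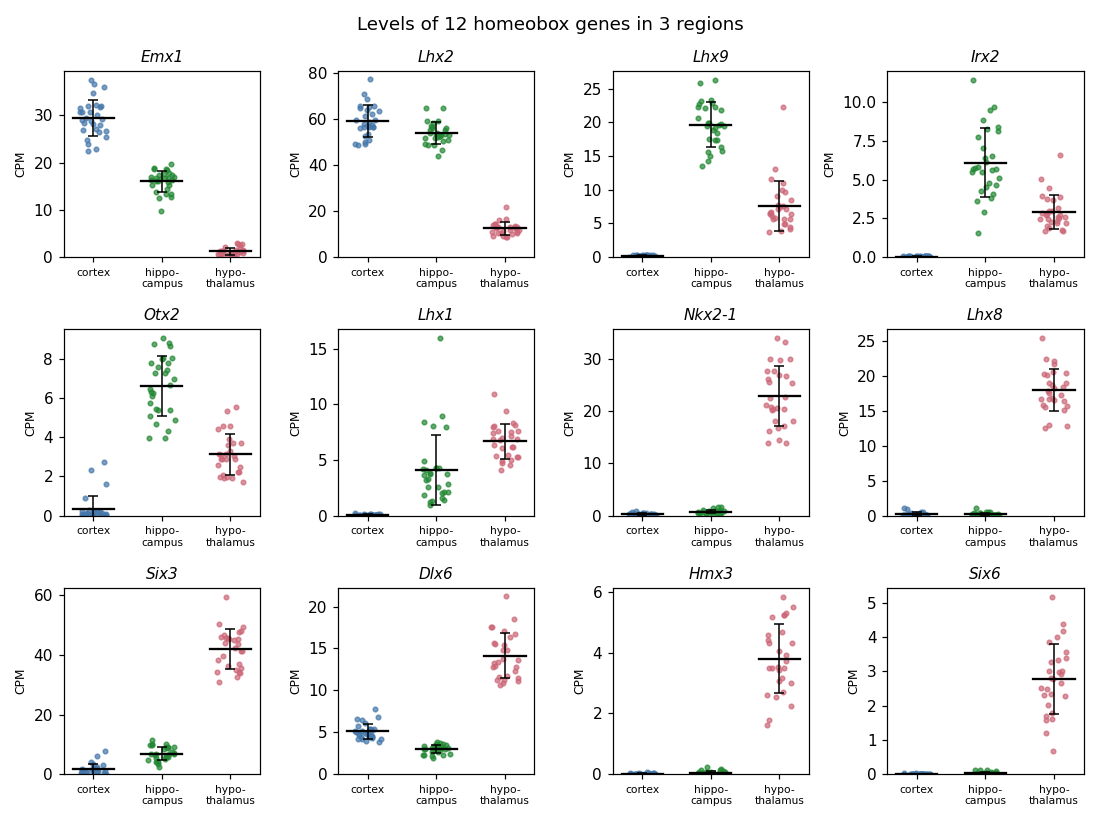
Each point is the CPM of 1 library for 12 members, by region, and the horizontal line and bars give the mean and SD. Emx1 falls from cortex to hippocampus to hypothalamus, Lhx9 and Irx2 are highest in the hippocampus and near 0 in the prefrontal cortex, and Hmx3 and Six6 lie near 0 outside the hypothalamus.

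A second group of members was nearly restricted to the hypothalamus. Six6, an eye and hypothalamus regulator, was at 0.666, 2.80 and 5.19 CPM in the hypothalamus, but its reads over all 29 prefrontal cortex libraries came to 3 and over the hippocampus to 31. Hmx3 and Hmx2, neighbours that act together in hypothalamic and inner ear development, reached medians of 3.63 and 1.45 CPM in the hypothalamus. Over all prefrontal cortex libraries Hmx3 had 9 reads and Hmx2 had 3. Nkx2-4 had a hypothalamic median of 1.92 CPM, 6 reads in all of the prefrontal cortex and 56 in the hippocampus. No fold change is given for these 4 genes against the prefrontal cortex because so few reads lay behind it. In the hippocampus their counts were uneven. Hmx2 and Hmx3 were highest in animal 7 (0.284 and 0.228 CPM), whereas Nkx2-4 was highest in animal 28 (0.316 CPM). The hippocampus library of animal 7 also had the highest sum of the 11 hypothalamic marker genes (111 CPM against a median of 24.8 CPM). The part of hypothalamic tissue in these counts was not tested. Without the 15 Gabra6-rich hippocampus libraries, the difference between hippocampus and prefrontal cortex no longer passed by edgeR for Six6, Hmx2 and Nkx2-4 (adjusted p = 0.9999 for each). Its sign stayed positive for these 3 genes, and Hmx3 still passed. That fit had fewer hippocampus libraries and the same few prefrontal cortex reads.

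Nkx2-1 patterns the ventral forebrain and is required for the hypothalamus to form. It stood at 13.9, 21.7 and 33.9 CPM in the hypothalamus, 0.286, 0.667 and 1.68 CPM in the hippocampus and 0.0237, 0.248 and 0.914 CPM in the prefrontal cortex. Every hypothalamus library was above every other library, and the log2 fold change was 6.37 (SE 0.16) against the prefrontal cortex and 4.95 (SE 0.15) against the hippocampus. Lhx8, a factor of basal forebrain cholinergic neurons, was at 12.6, 17.6 and 25.3 CPM in the hypothalamus and at most 1.09 CPM elsewhere. Its log2 fold change was 6.53 (SE 0.24) against the prefrontal cortex and 6.59 (SE 0.24) against the hippocampus. By edgeR the prefrontal cortex and hippocampus were not separated for Lhx8 (log2 difference -0.06, SE 0.31, adjusted p = 0.87), and the sign of that difference turned in 3 alternatives. Six3, needed for the anterior forebrain and eye, was at 31.1, 42.9 and 59.6 CPM in the hypothalamus, above every hippocampus library (2.44, 6.78 and 11.5 CPM) and every prefrontal cortex library (0.0950, 0.896 and 7.82 CPM). Its log2 fold change was 4.71 (SE 0.22) against the prefrontal cortex, and 5.09 without the 2 prefrontal cortex libraries rich in striatal genes. For Lhx8 the value without them was 6.98.

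Lhx5, a factor of hypothalamic and Purkinje neuron development, rose in steps from prefrontal cortex (0 to 0.671 CPM) to hippocampus (0.585 to 7.21 CPM) to hypothalamus (6.44 to 11.8 CPM). Its log2 fold change between hypothalamus and hippocampus was 1.90 (SE 0.15), and only the highest hippocampus library, animal 23, entered the hypothalamic range. Nkx6-2, a gene of myelinating oligodendrocytes, was at 31.0, 44.9 and 71.5 CPM in the hypothalamus, 10.8, 15.4 and 23.5 CPM in the hippocampus and 4.83, 7.79 and 11.7 CPM in the prefrontal cortex. The hypothalamus was separate from both other regions for Nkx6-2, with a log2 fold change of 2.45 (SE 0.08) against the prefrontal cortex. Irx6 was called higher in the hypothalamus than in both other regions, at a median of 1.10 CPM.

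Dlx genes specify GABAergic neurons of the ventral forebrain, and 2 of the 6, Dlx5 and Dlx6, were called higher in the hypothalamus than in both other regions. Dlx6 was at 10.7, 13.5 and 21.3 CPM in the hypothalamus, 3.82, 4.89 and 7.77 CPM in the prefrontal cortex and 1.89, 3.10 and 3.85 CPM in the hippocampus. The hypothalamus lay apart from both, and the log2 fold change was 1.47 (SE 0.07) against the prefrontal cortex and 2.24 (SE 0.07) against the hippocampus. Dlx5 differed by 1.19 (SE 0.07) and 1.99 (SE 0.08) on the log2 scale in the same comparisons. Dlx1 and Dlx2, the pair expressed earliest in the lineage, differed less: Dlx2 by 0.70 (SE 0.06) and 1.48 (SE 0.06), and Dlx1 by 0.10 (SE 0.05, edgeR adjusted p = 0.067) and 0.76 (SE 0.05). Gsx1, which acts upstream of Dlx genes in progenitors, was also called higher in the hypothalamus than in both other regions. It was low everywhere, with medians of 1.10 CPM in the hypothalamus, 0.291 CPM in the hippocampus and 0.208 CPM in the prefrontal cortex. Lhx6, a factor of cortical interneurons, was at 26.96, 37.3 and 48.9 CPM in the hypothalamus, above every prefrontal cortex library (16.7, 20.98 and 25.4 CPM) and every hippocampus library (9.62, 14.4 and 17.8 CPM). The difference for Lhx6 was 0.86 (SE 0.05) against the prefrontal cortex, short of 2-fold, and 1.45 (SE 0.05) against the hippocampus. Of 9 GABAergic neuron genes listed for comparison, 2 were called higher and 3 lower in the hypothalamus than in the prefrontal cortex: Gad2, an enzyme of GABA synthesis, differed by 1.74 (SE 0.04), while Vip, a neuropeptide of cortical interneurons, differed by -3.03 (SE 0.10) and Pvalb by -1.42 (SE 0.12). The 10 striatal marker genes summed to 679 to 2275 CPM in the hypothalamus against a median of 588 CPM in the prefrontal cortex. The share of striatal tissue in these differences was not tested.

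Another group was present in the hippocampus and hypothalamus and nearly absent from the prefrontal cortex. Lhx9, a factor of thalamic and hypothalamic neurons, was at 13.5, 19.6 and 26.3 CPM in the hippocampus and 3.73, 6.59 and 22.2 CPM in the hypothalamus. In the prefrontal cortex Lhx9 was at 0.0512, 0.177 and 0.358 CPM, below every other library. The log2 fold change for Lhx9 was 6.73 (SE 0.15) for hippocampus against prefrontal cortex and -1.38 (SE 0.11) for hypothalamus against hippocampus. Animal 6, highest in thalamic genes, was the hypothalamus library at 22.2 CPM.

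Iroquois (Irx) genes sit in paired clusters and are known from the caudal forebrain and midbrain. Irx2 was at 1.52, 5.70 and 11.5 CPM in the hippocampus, 1.70, 2.64 and 6.59 CPM in the hypothalamus and 0, 0.0387 and 0.0895 CPM in the prefrontal cortex. The hippocampus differed from the prefrontal cortex by 7.35 (SE 0.21) on the log2 scale, the largest such difference among the 44 members, and Irx2 was lower in the hypothalamus than in the hippocampus by a log2 fold change of -1.05 (SE 0.13). Irx1, Irx3 and Irx5 had log2 fold changes of 3.26 (SE 0.13), 3.84 (SE 0.16) and 4.86 (SE 0.19) for hippocampus against prefrontal cortex and of 3.05 (SE 0.13), 3.80 (SE 0.16) and 4.85 (SE 0.19) for hypothalamus against prefrontal cortex. The difference between hypothalamus and hippocampus did not pass for Irx1, Irx3 or Irx5 (log2 differences of -0.21, SE 0.12, of -0.04, SE 0.13, and of -0.01, SE 0.13), and the sign turned under other settings for Irx3 and Irx5.

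Otx2, known from the choroid plexus, midbrain and thalamus, was at 3.97, 6.65 and 9.03 CPM in the hippocampus, 1.71, 2.96 and 5.51 CPM in the hypothalamus and 0, 0.0686 and 2.71 CPM in the prefrontal cortex. Its log2 fold change was 5.06 (SE 0.27) for hippocampus against prefrontal cortex and -1.09 (SE 0.21) for hypothalamus against hippocampus. The 9 choroid plexus genes summed to 286 to 1536 CPM in the hippocampus and 59.6 to 356 CPM in the hypothalamus. Their median sum in the prefrontal cortex was 9.54 CPM. Within the prefrontal cortex, Otx2 was highest in animals 30 (2.71 CPM), 20 (2.30 CPM) and 8 (1.61 CPM). The choroid plexus sum was highest in animals 20 (458 CPM), 8 (26.6 CPM) and 11 (18.5 CPM), with animal 30 next at 17.9 CPM. Thalamic genes summed to 363 to 1337 CPM in the hypothalamus (median 499.6 CPM) and 270.0 to 634 CPM in the hippocampus (median 420 CPM). In the prefrontal cortex they summed to 69.2 to 108 CPM. The part of choroid plexus or thalamic tissue in the levels of Otx2 and Lhx9 was not tested.

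Lhx1, a factor of Purkinje and diencephalic neurons, was at 4.11, 6.81 and 10.97 CPM in the hypothalamus, 0.966, 3.69 and 15.97 CPM in the hippocampus and 0, 0.0507 and 0.185 CPM in the prefrontal cortex. Its log2 fold change was 6.77 (SE 0.25) for hypothalamus against prefrontal cortex, 6.002 (SE 0.25) for hippocampus against prefrontal cortex and 0.77 (SE 0.16) for hypothalamus against hippocampus. Barhl1 and Barhl2, which act in cerebellar granule cells and in the diencephalon, had medians of 4.18 and 2.73 CPM in the hippocampus, 2.25 and 2.68 CPM in the hypothalamus and 0.152 and 0.134 CPM in the prefrontal cortex. In the hippocampus they spread from 0.508 to 11.8 CPM (Barhl1) and from 0.390 to 13.2 CPM (Barhl2), with animal 23 highest for both. Their log2 fold changes for hippocampus against prefrontal cortex were 4.66 (SE 0.20) and 4.30 (SE 0.22), and 4.15 and 3.51 without the 15 libraries rich in Gabra6. For Lhx1 the value without them was 5.17. Between hypothalamus and hippocampus, Barhl1 had a log2 fold change of -0.93 (SE 0.16), which was -0.43 (edgeR adjusted p = 0.051) without those libraries. Barhl2 went from -0.20 (SE 0.17, edgeR adjusted p = 0.28) to 0.58 (adjusted p = 0.012), a change of sign, and Lhx1 from 0.77 to 1.60.

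**Figure D3:**
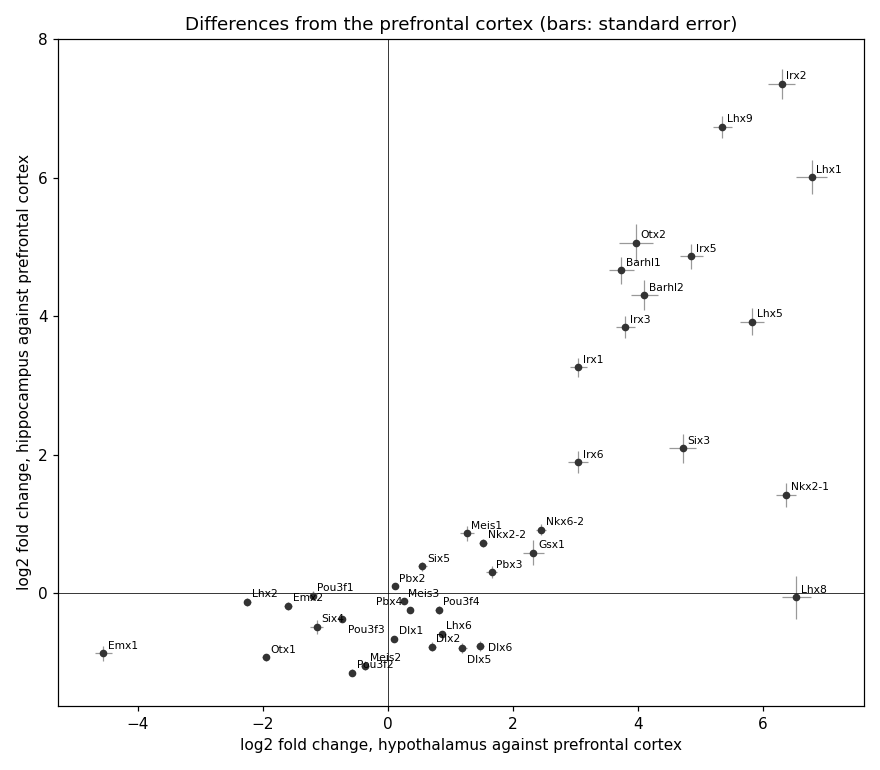
Log2 fold changes of 38 members by edgeR, hypothalamus against prefrontal cortex (horizontal) and hippocampus against prefrontal cortex (vertical), with bars for 1 standard error. The 4 members with fewer than 10 reads over all prefrontal cortex libraries are left out. Lhx8 lies far to the right and near 0 on the vertical axis, Nkx2-1 far to the right at 1.42, Irx2, Lhx9 and Lhx1 are high on both axes, and Emx1, Lhx2 and Otx1 lie to the left.

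Broadly expressed members formed the remaining group. Pbx2, a partner of many homeodomain proteins, was at 49.9, 60.4 and 68.7 CPM in the prefrontal cortex, 55.5, 63.5 and 72.2 CPM in the hippocampus and 57.1, 64.0 and 74.2 CPM in the hypothalamus. The regions overlapped, and Pbx2 differed by 0.10 or less on the log2 scale and Pbx4 by at most 0.59 (SE 0.05). Pbx3 was the exception, at 27.5, 32.9 and 41.2 CPM in the hypothalamus, above every library of the prefrontal cortex (4.76 to 18.1 CPM) and hippocampus (8.26 to 18.9 CPM), with a log2 fold change of 1.66 (SE 0.09) against the prefrontal cortex. Meis2, a factor of striatal and olfactory neurons, was at 79.0, 107 and 133 CPM in the prefrontal cortex and 42.0, 51.7 and 58.8 CPM in the hippocampus, without overlap (log2 fold change -1.05, SE 0.07). With library totals as the only scaling the value was -0.93, short of 2-fold. Meis1, which also acts in granule cells, was called higher in the hypothalamus than in the prefrontal cortex (1.26, SE 0.11). Meis3 stayed within 0.37 (SE 0.04) in all 3 comparisons.

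POU class III factors of neural progenitors and neurons split between regions. Pou3f2, a factor of upper-layer cortical neurons, was at 40.3, 48.1 and 57.8 CPM in the prefrontal cortex, 27.6, 32.2 and 39.8 CPM in the hypothalamus and 15.98, 22.01 and 29.99 CPM in the hippocampus. The prefrontal cortex was separate from both, and the log2 fold change of the hippocampus against it was -1.15 (SE 0.04). Pou3f1 was lower in the hypothalamus (13.4, 21.9 and 33.1 CPM) than in every prefrontal cortex library (33.8, 51.5 and 65.2 CPM), with a log2 fold change of -1.21 (SE 0.06), and the difference between hippocampus and prefrontal cortex did not pass (-0.04, SE 0.06, with the sign turning in 2 alternatives). Pou3f3 fell by 0.74 (SE 0.04) from prefrontal cortex to hypothalamus, while Pou3f4 was higher in the hypothalamus by 0.81 (SE 0.06). Of the other members, Nkx2-2, a factor of oligodendrocyte maturation, was called higher in the hypothalamus than in the prefrontal cortex (1.52, SE 0.06), and Six5 was not called in any comparison. Among 10 members tested with a mean below 1 CPM in every region, Dlx3, Gsx2, Lhx3, Nkx2-9 and Nkx6-1 were called lower in the prefrontal cortex than in both other regions, and Dlx4, Nkx6-3 and Six2 were called in no comparison. The filter on low counts could be met through 1 region alone. In any prefrontal cortex library Dlx3 had at most 8 reads, Lhx3 12 and Nkx6-1 11, against a minimum count of 10. A lower level in the prefrontal cortex was thus partly built into which of these genes were tested. The share of all genes with this pattern was not counted.

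Partners and other regulators were read from lists for context. A LIM list held partners of Lhx proteins and LIM-homeobox genes outside the Lhx family. Of its 13 genes tested, 3 were called higher and 2 lower in the hypothalamus than in the prefrontal cortex. The 3 called higher were the LIM-homeobox genes Lmx1a (7.54, SE 0.28), Isl1 (5.71, SE 0.24) and Lmx1b (3.91, SE 0.17), and no partner was called higher. Of 6 Eya and Dach genes, 1 was called higher (Dach2, 1.81, SE 0.12) and 1 lower (Eya4, -1.25, SE 0.06). Of 6 other TALE genes, 1 was called higher (Tgif1, 1.003, SE 0.09) and 2 lower, Mkx (-2.53, SE 0.08) and Pknox2 (-1.33, SE 0.03). Among 28 other forebrain transcription factors, 12 were called higher and 7 lower, and Sim1 (8.55, SE 0.22), Otp (7.94, SE 0.18) and Fezf1 (6.57, SE 0.33), all regulators of hypothalamic neurons or their territory, led the list. The background for these counts is the same 9.28% and 7.13% of all genes. Of 10 antisense or opposite-strand transcripts of members, 5 were called higher and 1 lower, with Lhx1os at 6.58 (SE 0.26) beside Lhx1 at 6.77 and Six3os1 at 5.31 (SE 0.20) beside Six3 at 4.71, and Emx2os at -1.07 (SE 0.08) beside Emx2 at -1.60. Irx3os had 3.05 (SE 0.30). Six3, Emx2 and Irx3 overlap their antisense gene in span, so without a strand setting the values of these 3 pairs may not be independent. Lhx1 overlaps no annotated opposite-strand gene.

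Against the hippocampus, 3 genes of the LIM list were called higher in the hypothalamus and 2 lower. The 3 called higher were again the LIM-homeobox genes Isl1 (4.70, SE 0.22), Lmx1b (2.55, SE 0.15) and Lmx1a (2.52, SE 0.18). Over all genes tested, 5.32% were called higher and 5.18% lower. No Eya, Dach or other TALE gene was called, with Eya1 (-0.99, SE 0.07), Dach1 (0.75, SE 0.07), Eya4 (-0.74, SE 0.06), Mkx (-0.93, SE 0.07), Tgif1 (0.60, SE 0.09) and Pknox2 (-0.55, SE 0.03) furthest from 0. Of the other forebrain factors 12 were called higher and 5 lower, led by Fezf1 (6.56, SE 0.32), Otp (5.94, SE 0.15) and Sim1 (5.86, SE 0.17). Of the GABAergic genes 2 were called higher and 2 lower, with Vip at -1.87 (SE 0.09), Gad2 at 1.71 (SE 0.04) and Pvalb at -1.60 (SE 0.12), and of the antisense transcripts 2 and 2, with Six3os1 at 2.87 (SE 0.17), Otx2os1 at -1.63 (SE 0.27) and Emx2os at -1.60 (SE 0.08).

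Between hippocampus and prefrontal cortex, 3 genes of the LIM list were called higher and 0 lower. They were the same LIM-homeobox genes, Lmx1a (5.02, SE 0.31), Lmx1b (1.36, SE 0.17) and Isl1 (1.01, SE 0.25). Over all genes tested, 5.01% were called higher and 2.07% lower. Dach2 was the 1 Dach or Eya gene called (1.27, SE 0.12), beside Eya4 at -0.51 (SE 0.06) and Eya3 at -0.35 (SE 0.02). Mkx was the 1 TALE gene called (-1.60, SE 0.07), beside Pknox2 at -0.78 (SE 0.03) and Tgif1 at 0.41 (SE 0.09). Of the other forebrain factors 8 were called higher and 5 lower, led by the thalamic gene Gbx2 (4.21, SE 0.21), Sim1 (2.69, SE 0.31) and Zic1 (2.20, SE 0.12). Among GABAergic genes 0 were called higher and 1 lower, Vip (-1.16, SE 0.09), beside Npy at -0.59 (SE 0.08) and Npas1 at -0.28 (SE 0.04). Of the antisense transcripts 4 were called higher and 0 lower, led by Lhx1os (5.76, SE 0.26), Otx2os1 (3.93, SE 0.37) and Irx3os (2.64, SE 0.31).

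Members of a genomic cluster were compared across animals within a region, where both had a mean of at least 1 CPM. Dlx1 and Dlx2 lie 9.43 kb apart on chromosome 2 on opposite strands, and Dlx6 and Dlx5 9.24 kb apart on chromosome 6. Irx1 and Irx2 are separated by 665 kb on chromosome 13 and Irx3 and Irx5 by 556 kb on chromosome 8. Over 28 hypothalamus libraries, Dlx1 and Dlx2 had a Pearson r of 0.82 and a Spearman rho of 0.78 (adjusted permutation p = 1.83e-05 and 3.67e-05 over 11 relations), and r was 0.71 without the 2 animals farthest from the median. In the hippocampus the same pair had r = 0.34 and rho = 0.24 (adjusted permutation p = 0.082 and 0.233), and r was 0.13 without animal 23. Irx1 and Irx2 had r = 0.92 and rho = 0.87 in the hippocampus and r = 0.78 and rho = 0.83 in the hypothalamus (each adjusted permutation p = 1.83e-05 for r, the smallest that was possible here), and r was 0.87 and 0.90 without the 2 farthest animals. Irx3 and Irx5 had r = 0.91 and 0.82 in the same regions. Nkx2-2 and Nkx2-4, 92.1 kb apart on chromosome 2, had r = -0.04 and rho = 0.07 in the hypothalamus (permutation p = 0.853 and 0.724). Within the 4 groups of sex and network size the Irx1 and Irx2 values were 0.93 and 0.76. In the hippocampus Irx1, Irx2 and Irx3 were all highest in animal 23 and lowest in animal 22. Lhx1 on chromosome 11 and Barhl2 on chromosome 5 were too. The r of Irx1 and Irx2 there was 0.91 without animal 23. No pair of members from different chromosomes was compared, and the part of neighbouring tissue in these relations was not tested.

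The spread over animals was measured as the SD of log2 CPM within groups. Its median was 0.20 over members and 0.17 over all genes in the prefrontal cortex, 0.25 and 0.15 in the hippocampus, and 0.29 and 0.16 in the hypothalamus. Among prefrontal cortex libraries Six3 had an SD of 1.49, larger than that of 99.4% of genes, and the next member, Pbx3, had 0.50. Six3 was highest in animals 10 (7.82 CPM) and 20 (6.08 CPM), the same animals that were highest for striatal genes. Against the mean standardized log2 level of the 10 striatal genes, Six3 had r = 0.91 and rho = 0.94 over 29 libraries (adjusted permutation p = 0.00081 for both over 81 relations, the smallest that was possible here). The value of r was 0.90 without the 2 farthest animals and 0.92 within groups. Six3 also rose with ependymal genes (r = 0.67, rho = 0.61, adjusted permutation p = 0.00223 and 0.00942). Pbx3 in the prefrontal cortex rose with the 9 midbrain dopamine genes (r = 0.70, rho = 0.69, adjusted permutation p = 0.00081 and 0.00121, n = 29), with ependymal genes (r = 0.58, rho = 0.58, adjusted permutation p = 0.00575 and 0.0117) and with choroid plexus genes (r = 0.49, rho = 0.59, adjusted permutation p = 0.013 and 0.00942). With striatal genes Pbx3 had r = 0.50 and rho = 0.41 (adjusted permutation p = 0.0263 and 0.107). The part of neighbouring tissue in these spreads was not tested.

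In the hippocampus the widest members were Barhl2 (SD 0.97), Lhx1 (0.88), Barhl1 (0.88) and Lhx5 (0.69), and in all 4 the highest library was that of animal 23. Against the mean standardized log2 level of the 6 granule cell genes, Lhx1 had r = 0.94 and rho = 0.94, Barhl2 r = 0.87 and rho = 0.89, and Barhl1 r = 0.67 and rho = 0.69 over 29 libraries. These had adjusted permutation p = 4.5e-05 for Lhx1 and Barhl2 and 0.00012 for Barhl1 over 9 relations with this list. Without the 2 farthest animals r was 0.92, 0.84 and 0.54, and within groups 0.92, 0.84 and 0.63. The list was chosen after these values had been seen, so the relations describe the libraries and are no independent test. Barhl1 also fell with the 8 hippocampal genes (r = -0.72, rho = -0.60, adjusted permutation p = 0.00108 and 0.00942, n = 29), with r = -0.43 without the 2 farthest animals. With the 7 cortical genes Lhx1 had r = -0.66 and rho = -0.62 (adjusted permutation p = 0.00275 and 0.00891) and Barhl2 r = -0.55 and rho = -0.60 (adjusted permutation p = 0.0152 and 0.00942), and r was -0.49 and -0.38 without the 2 farthest animals.

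In the hypothalamus the widest were Emx1 (SD 0.88), Nkx2-4 (0.65), Six6 (0.59) and Lhx9 (0.58). Six6, Hmx2, Hmx3, Nkx2-1, Nkx2-4, Lhx8 and Pbx3 were all lowest in animal 6 and Lhx9 and Otx2 highest there. The other members called higher in the hypothalamus than in both other regions were lowest in other animals. These were Six3, Lhx5, Dlx5, Dlx6, Gsx1, Nkx6-2 and Irx6. Six6 had r = 0.55 and rho = 0.64 with the 11 hypothalamic marker genes over 28 libraries (adjusted permutation p = 0.0215 and 0.00783). For this relation r was 0.79 without the 2 farthest animals, 0.49 without animal 6 and 0.45 within groups. With the thalamic genes Six6 had r = -0.66 (adjusted permutation p = 0.00476) but rho = -0.34 (adjusted permutation p = 0.222), and r was -0.45 without animal 6. Nkx2-4 had r = -0.64 and rho = -0.50 with the thalamic genes (adjusted permutation p = 0.00476 and 0.0354; r = -0.47 without animal 6), and Six6 had r = 0.63 and rho = 0.52 with ependymal genes (adjusted permutation p = 0.00504 and 0.0294; r = 0.48 without animal 6). Emx1 in the hypothalamus rose with the 7 cortical genes (r = 0.57, rho = 0.56, adjusted permutation p = 0.00979 and 0.0173, n = 28). Leaving out the hypothalamus library of animal 6 left the numbers of called members at 30, 7, 17 and 9.

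**Figure D4:**
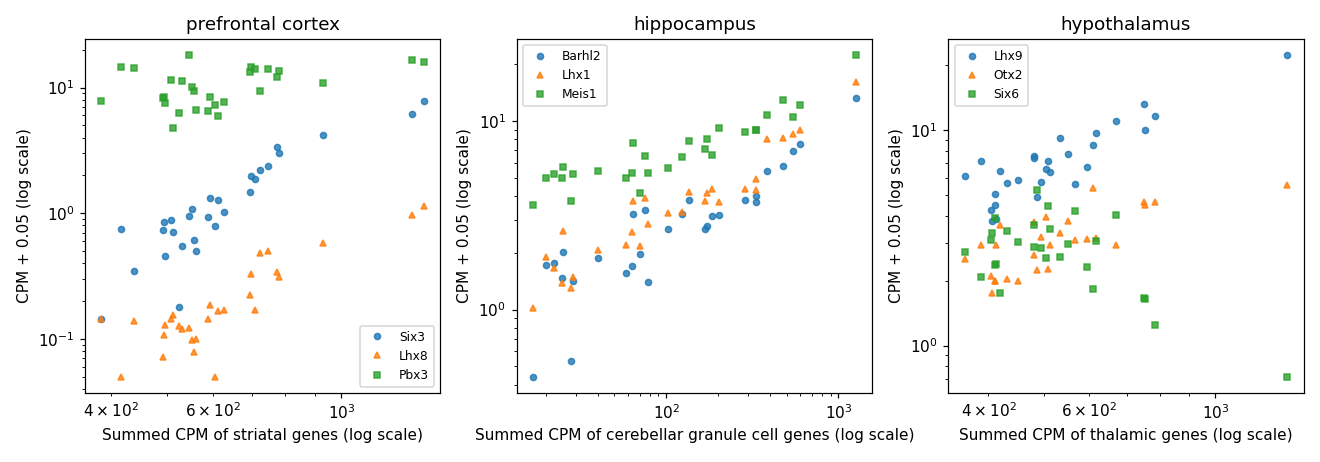
Each point is 1 library, with the CPM of a member plus 0.05 on a vertical log scale against the summed CPM of a marker list on a horizontal log scale. In the prefrontal cortex Six3 rises with striatal genes, in the hippocampus Lhx1 and Barhl2 rise with granule cell genes, and in the hypothalamus animal 6, at the far right, is highest for Lhx9 and lowest for Six6; Lhx8, Meis1, Lhx9 and Otx2 were picked for this plot after their values were seen.

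Social network size was compared within each sex and region by edgeR, small against large, and no member passed an adjusted p of 0.05 in any of the 6 comparisons. In females these covered 33 members tested in the prefrontal cortex, 44 in the hippocampus and 51 in the hypothalamus, and in males 33, 46 and 51. Among all genes tested, the share past the same threshold was 0.0113% in the prefrontal cortex of females, 0.00552% in their hypothalamus and 0% in their hippocampus and in all 3 regions of males. DESeq2 also called 0 members in each of the 6. More genes of any kind passed by DESeq2 than by edgeR in females. Female prefrontal cortex had 29 genes higher and 45 lower with small networks by DESeq2, among 27741 genes with at least 1 read. Female hippocampus had 59 higher and 36 lower (27514 such genes), and female hypothalamus had 34 higher and 9 lower (28004 such genes). For males DESeq2 gave 2 higher in prefrontal cortex, 1 higher in hypothalamus and 0 in hippocampus. At an unadjusted edgeR p under 0.05 there were 7 members in the female hippocampus (all genes, 12.2%), all higher with small networks. There were 7 in the female hypothalamus (7.39%), 6 higher and 1 lower. There was 1 in the female prefrontal cortex (9.59%), 0 in the male prefrontal cortex (2.52%), and 2 each in the male hippocampus (3.88%) and male hypothalamus (2.9%).

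The 3 members with the smallest p in the female hippocampus were Lhx1, Barhl2 and Meis1. Lhx1 was at 1.25, 2.16 and 4.90 CPM in large-network females and 2.02, 4.27 and 15.97 CPM in small-network females, and the groups overlapped (log2 fold change 1.36, SE 0.40, edgeR adjusted p = 0.249). Barhl2 was at 0.483, 1.65 and 3.96 CPM against 1.83, 3.66 and 13.2 CPM (1.46, SE 0.43, edgeR adjusted p = 0.254), and Meis1 at 3.71, 5.16 and 8.92 CPM against 5.36, 8.72 and 22.3 CPM (0.88, SE 0.26, edgeR adjusted p = 0.257). Genes of cerebellar granule cells moved with these groups. Their sum was 20.2 to 332 CPM with a median of 28.6 CPM in large-network females and 40.1 to 1260 CPM with a median of 287 CPM in small-network females, and Gabra6 had medians of 1.47 and 38.4 CPM. Their part in the differences was not tested.

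In the female hypothalamus Lhx1, Irx1 and Otx1 had the smallest p. Lhx1 was at 4.11, 5.44 and 7.12 CPM in large-network and 5.36, 7.59 and 9.45 CPM in small-network females (log2 fold change 0.42, SE 0.12, edgeR adjusted p = 0.524). Irx1 differed by 0.38 (SE 0.12) and Otx1 by 0.41 (SE 0.13), with the same adjusted p, and both overlapped between groups. The 9 midbrain dopamine genes had a median sum of 106 CPM in large-network and 266 CPM in small-network females, and their part in these values was not tested. The authors had reported Th, Ddc, Slc18a2 and Chrna6, all on this list, as higher in the hypothalamus of these small-network females. The higher sum is therefore no independent result. In males the leading values were 0.37 (SE 0.12) for Nkx6-2, 0.28 (SE 0.13) for Otx2 and 0.41 (SE 0.22) for Six3 in the hippocampus, and 0.35 (SE 0.15) for Lhx2, 0.17 (SE 0.08) for Pou3f3 and 0.26 (SE 0.13) for Pou3f1 in the hypothalamus, with an edgeR adjusted p of 0.999 or more for each. In the prefrontal cortex they were 0.52 (SE 0.24) for Nkx2-1, -0.16 (SE 0.08) for Emx1 and -0.17 (SE 0.10) for Pbx4 in females, and -0.64 (SE 0.32) for Irx3, -0.35 (SE 0.22) for Pbx3 and 0.11 (SE 0.07) for Lhx6 in males.

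**Figure D5:**
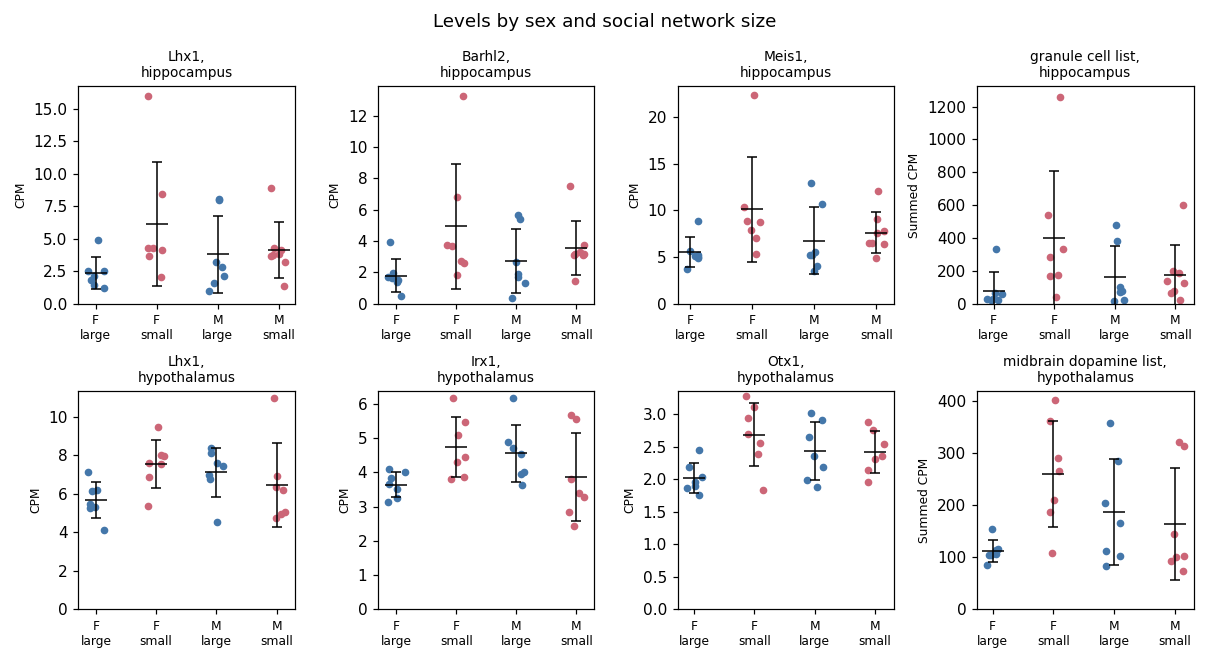
CPM of the 3 members with the smallest p in the female comparison of the hippocampus (top) and hypothalamus (bottom), with the summed CPM of a marker list in the last panel of each row, by sex (F, M) and network size. Points are animals and the line and bars the mean and SD; groups overlap in each panel, and small-network females include the highest granule cell sum (1260 CPM) and the highest midbrain dopamine sum (401 CPM).

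Females and males were compared over both network sizes, and no member passed an adjusted p of 0.05 in edgeR or DESeq2, against 0.0976% of all genes in the prefrontal cortex, 0.102% in the hippocampus and 0.117% in the hypothalamus by edgeR. Members with an unadjusted p under 0.05 numbered 1, 1 and 0 in these regions (all genes, 4.98%, 5.99% and 6.79%). They were Otx1, lower in females by -0.16 (SE 0.07) in the prefrontal cortex, and Nkx2-1, at -0.47 (SE 0.22) in the hippocampus. The next smallest were Meis2 (0.12, SE 0.06) and Nkx6-2 (-0.17, SE 0.11) in the prefrontal cortex, and Otx1 (-0.16, SE 0.08) in the hippocampus. In the hypothalamus the smallest were Otx2 (-0.31, SE 0.16), Nkx2-1 (0.23, SE 0.13) and Pou3f4 (0.15, SE 0.09). Whether the network size difference itself differed between the sexes was tested in each region, and by edgeR no gene of any kind passed (0% of genes in each region). Unadjusted p-values under 0.05 were found for 1 member in the prefrontal cortex (4.17% of genes), 5 in the hippocampus (7.37%) and 9 in the hypothalamus (6.14%). The smallest p in the hippocampus were those of Lhx8 (difference of log2 fold changes -2.50, SE 0.88), Nkx6-2 (-0.40, SE 0.19) and Meis2 (-0.18, SE 0.08). Lhx8 was very low in the hippocampus, with a median of 0.123 CPM and 260 reads over all 29 libraries. In the hypothalamus the smallest were those of Irx1 (0.62, SE 0.23), Lhx1 (0.56, SE 0.23) and Pou3f1 (-0.50, SE 0.21). In the prefrontal cortex Lhx5 led, ahead of Pbx3 (0.66, SE 0.35) and Lhx9 (0.88, SE 0.47), with a difference of 3.55 (SE 0.78) and an edgeR adjusted p of 0.154. DESeq2 called Lhx5 alone among members (3.62, DESeq2 adjusted p = 0.0182), with 0.104% of the 28838 genes with at least 1 read called. Lhx5 was very low there, with medians of 0.0986 CPM in large-network and 0.213 CPM in small-network females, and 0.233 CPM in large-network and 0.0544 CPM in small-network males.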

How the data were processed

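Whole-transcript libraries of 86 tissue punches from 29 wild mice were analysed from the deposited count table, which the authors made by aligning reads with STAR to the mm10 genome and counting them per gene with HTSeq. The submitters' notes also name CASAVA 1.8.2 and DESeq2. The strand setting and further versions are not given in the sources used here. Counts were used as deposited (total 33711824 to 81865801 per library, median 44778419). Low genes were removed with filterByExpr (minimum count 10, minimum total 15, proportion 0.7), libraries were scaled by TMM, and contrasts were tested two-sided with the quasi-likelihood test of edgeR 4.0.16 in R 4.3.3 with Benjamini-Hochberg adjustment over all genes tested. Regions were compared over all 86 libraries with 12 group means, network size within each sex and region, and sex and its interaction within each region. CPM on the log2 scale used a prior count of 0.5, and gene identifiers were named from GENCODE M21 (34490 of 35275 found).

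Members were chosen by symbol, and members and gene lists were chosen with earlier results of these data known. Members with a mean of at least 1 CPM in 1 region were named, for network size and sex those with an adjusted p under 0.05 or among the 3 smallest p, and for other lists the 3 largest log2 fold changes. Correlations used 100000 permutations (two-sided). Replicates are separate animals. The same animal gave up to 3 libraries, and the residuals of the 3 regions correlated within every animal (0.23 to 0.51, highest with the animal's own number for all 29, 28 and 28 animals), so numbers pair samples. The fits were tested on simulated data. Alternatives were DESeq2 1.42.0 (Wald test), its size factors, library totals, no filter on low counts, a prior count of 2, an animal block, 4 groups in one fit, leaving out each replicate or the library of low RNA integrity, and, added after seeing the data, leaving out libraries rich in neighbouring tissue. Single results of a few members are not reported here.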

Additional observations from a re-analysis of the deposited data

Results flagged for a closer look

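In 3 of 66 sets of libraries, each set being 1 gene in 1 group of 7 or 8 animals, the lowest or highest library stood far from the others, and chance gives about 1 in 20 sets. Barhl1 was at 0.508 CPM in the hippocampus of animal 26, a large-network female, with the nearest other library of its group at 2.05 CPM. Emx1 was at 0.369 CPM in the hypothalamus of animal 20, a large-network male, with the nearest at 1.01 CPM. Nkx2-4 was at 5.005 CPM in the same library, with the nearest at 1.97 CPM.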

How the results depend on the processing

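Members called between regions kept their counts within 1.5 times under every alternative run, apart from those called lower in the hippocampus than in the prefrontal cortex, which fell from 2 to 1 with library totals as the only scaling. DESeq2 called 1 member (Lhx5) for sex by network size in the prefrontal cortex. Pairing libraries of an animal by a replicate block left all counts of called members unchanged. It turned the small hypothalamus-to-hippocampus value of Irx5 to 0.00640 and the hippocampus-to-cortex value of Lhx8 to 0.0713.

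Of the other values that changed sign, Barhl2 passed the threshold in the opposite direction. For hypothalamus against hippocampus, without the 15 Gabra6-rich hippocampus libraries Barhl2 went from -0.20 to 0.584 (edgeR adjusted p = 0.012), Irx3 became 0.197 and Irx5 0.214, and with library totals Irx3 became 0.0229 and Irx5 0.0602. Pbx2 became -0.000791 by DESeq2, -0.00107 with its size factors, -0.00473 without 2 cortex libraries, -0.000953 without the Gabra6-rich libraries, -0.00436 without the hypothalamus library of animal 6 and -0.00113 without the library of low RNA integrity. For hippocampus against cortex, library totals gave Lhx8 0.0582, Meis3 0.00575 and Pou3f1 0.0906. Lhx8 became 0.399 without 2 cortex libraries and Pou3f1 0.0245 without the Gabra6-rich ones. The cause was not tested. Library totals moved the median of all genes from 0.03 to 0.22 (hypothalamus against cortex) and from 0.01 to 0.14 (hippocampus against cortex).

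Leaving out each replicate gave 0 members past the adjusted p threshold for network size in every fit, with Lhx1 in the female hippocampus between 0.92 and 1.64. Low members such as Six6 and Hmx2 rest on few reads outside the hypothalamus.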
